A study of Mus musculus with 5 samples.

Results

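The CXC chemokines described here are 9 genes, Cxcl1, Cxcl2, Cxcl5, Cxcl9, Cxcl10, Cxcl12, Cxcl13, Cxcl14 and Cxcl16, taken by name from the 31053 genes of the count tables. They were measured by single-cell RNA sequencing of sorted mouse liver cells in 5 libraries. All mice were male and carried the reporter Rosa26mTmG together with Col1a1-Cre on a C57BL/6J background, so that cells with a history of Col1a1 promoter activity carry GFP. Mice of the DEN+WAD groups received diethylnitrosamine (DEN, a liver carcinogen, 10 mg/kg) at 2 weeks of age and, from 6 weeks, a liquid Western alcohol diet (WAD) with 3.5% ethanol by volume for 5 months. Controls received saline and chow. Cells were sorted by vitamin A (VitA) autofluorescence, the property of retinoid droplets in hepatic stellate cells, and by the GFP reporter. For each diet, VitA+Col1a1+ cells gave 1 library and VitA-Col1a1+ cells another, with 1 library labelled VitA-Col1a1- from DEN+WAD livers. The number of mice behind each library is not given in the sources used here.

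CXC chemokines are small secreted proteins, named for a pair of cysteines separated by 1 residue, that guide leukocytes by way of G protein-coupled receptors. Cxcl1, Cxcl2 and Cxcl5 draw neutrophils through Cxcr2 and are classic targets of NF-kB. Cxcl9 and Cxcl10 draw T and NK cells through Cxcr3 and are induced by interferons. Cxcl12 holds Cxcr4-bearing cells in their niche, Cxcl13 draws B cells through Cxcr5, Cxcl14 is found mainly in epithelia and stroma, and Cxcl16 is made as a membrane protein that binds Cxcr6 on T and NKT cells. In liver, stellate cells, sinusoidal endothelium and macrophages are all known sources of chemokines.

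The libraries held 259 to 10481 cells and 6145748 to 149936344 unique molecular identifiers (UMIs, 1 per captured mRNA molecule), with 9105.5 to 24077 UMIs in the median cell. At most 21 cell barcodes were shared by any pair of libraries. Levels are counts per 1000000 UMIs of the library (CPM), and every interval is a 95% interval for counting error only. With 1 library per group no difference between groups could be tested, the spread between mice is unknown, and a fold of 2 or more in the point value is given as a size and not as a call of significance. In the VitA-Col1a1- labelled library the Col1a1 mRNA was 1062 CPM, against 304 and 958 CPM in the VitA+Col1a1+ and VitA-Col1a1+ DEN+WAD libraries, so its RNA does not match the label. Within a library, cells were put into classes by 1 gene: Lrat-positive (a stellate cell gene), Pecam1-positive (endothelium) or C1qa-positive (macrophages), each with at least 1 UMI of that gene and 0 of the other pair. In the VitA-Col1a1- labelled library the 10 stellate markers summed to 8579 CPM in Lrat-positive cells, the 10 endothelial markers to 12171 CPM in Pecam1-positive cells and the 10 macrophage markers to 16101 CPM in C1qa-positive cells. The C1qa-positive cells also held 8994 CPM of 8 hepatocyte markers, whose part in the values below was not tested.

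The 9 genes lie on 4 chromosomes of the mouse genome (GRCm38, GENCODE annotation), all as protein-coding genes. Cxcl5 (chr5:90759360-90761624), Cxcl1 (chr5:90891241-90893115) and Cxcl2 (chr5:90903871-90905938) lie in this order on the plus strand. Cxcl9 (chr5:92321347-92328079) and Cxcl10 (chr5:92346638-92348889) are neighbours on the minus strand, and Cxcl13 (chr5:95956951-95961068) is on the plus strand of the same chromosome. Cxcl12 is at chr6:117168535-117181367 (plus), Cxcl14 at chr13:56288643-56296551 (minus) and Cxcl16 at chr11:70453983-70459984 (minus).

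Promoter sequence was available for 7 of the 9 genes, as the 250 bases before the RefSeq start site in GRCm38.p6. The 4 below are shown because most Lrat-positive cells with Cxcl2 also held Cxcl1, and because Cxcl9 and Cxcl10 were higher with DEN+WAD in both gates. Sequences run from 5′ to 3′ on the strand of the gene, and capitals mark matches to the NF-kB consensus in Cxcl1 and Cxcl2, to the interferon-stimulated response element core GAAANNGAA in Cxcl9, and to both in Cxcl10. Their positions are chr5:90890995-90891244 (plus) for Cxcl1, chr5:90903649-90903898 (plus) for Cxcl2, chr5:92328080-92328329 (minus) for Cxcl9 and chr5:92348890-92349139 (minus) for Cxcl10.
Cxcl1: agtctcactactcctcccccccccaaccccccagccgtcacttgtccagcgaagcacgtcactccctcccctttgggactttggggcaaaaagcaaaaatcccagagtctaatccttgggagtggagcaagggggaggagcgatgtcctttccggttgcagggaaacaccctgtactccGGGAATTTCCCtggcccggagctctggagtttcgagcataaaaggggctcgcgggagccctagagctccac
Cxcl2: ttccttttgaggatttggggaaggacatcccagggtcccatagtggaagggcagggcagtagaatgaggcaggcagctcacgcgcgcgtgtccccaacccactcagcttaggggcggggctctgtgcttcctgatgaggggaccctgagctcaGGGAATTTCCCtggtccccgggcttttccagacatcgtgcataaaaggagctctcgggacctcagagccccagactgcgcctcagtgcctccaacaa
Cxcl9: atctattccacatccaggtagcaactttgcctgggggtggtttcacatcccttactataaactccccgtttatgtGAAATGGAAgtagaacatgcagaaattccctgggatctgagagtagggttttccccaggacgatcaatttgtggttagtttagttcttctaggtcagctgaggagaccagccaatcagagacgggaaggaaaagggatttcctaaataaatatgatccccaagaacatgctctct
Cxcl10: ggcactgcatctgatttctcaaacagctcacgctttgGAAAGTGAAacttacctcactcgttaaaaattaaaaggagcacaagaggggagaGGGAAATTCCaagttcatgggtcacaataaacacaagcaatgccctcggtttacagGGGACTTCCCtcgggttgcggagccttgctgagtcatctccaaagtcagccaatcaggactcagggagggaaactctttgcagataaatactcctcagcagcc

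Both strands were searched. In Cxcl1 the NF-kB letters were met on both strands at overlapping positions starting 71 and 70 bases before the start site, and in Cxcl2 at 97 and 96 bases before it. Cxcl10 held 2 NF-kB matches, at 159 and 103 bases, and 1 response element core at 213 bases, and Cxcl9 held 1 core at 175 bases. Cxcl14 held 1 core (172 bases) and 1 match to the gamma-activated site TTCNNNGAA (191 bases), whereas Cxcl12 and Cxcl13 held no match to any of these letters in this window. Among 32817 promoters of this length, 3.9% held the NF-kB letters, 7.12% the core and 7.01% the gamma-activated site letters. A match describes letters only.

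Cxcl12 was the chemokine with the most UMIs, a count of molecules that is not scaled by gene length, in every library. Its level was 4019 CPM (4008 to 4029) in VitA+Col1a1+ DEN+WAD cells, 3652 CPM (3635 to 3669) in VitA-Col1a1+ DEN+WAD cells, 4663 CPM (4609 to 4717) in VitA+Col1a1+ chow cells, 3672 CPM (3641 to 3702) in VitA-Col1a1+ chow cells and 824 CPM (819 to 830) in the VitA-Col1a1- labelled library. The 4 Col1a1+ libraries thus lay together, and the VitA-Col1a1- labelled library lay below all of them. Cxcl14 showed another order, with the VitA+ gate above the VitA- gate under both diets. It stood at 356 CPM with DEN+WAD and 274 CPM with chow in the VitA+ gate, against 175 and 104 CPM in the VitA- gate and 101 CPM in the VitA-Col1a1- labelled library. The last 2 of these values have overlapping intervals (98.7 to 109 and 98.7 to 102).

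Among the neutrophil-attracting members, Cxcl1 was the most counted. It reached 567 CPM in VitA+Col1a1+ DEN+WAD cells, 730 CPM in VitA-Col1a1+ DEN+WAD cells, 253 CPM in VitA+Col1a1+ chow cells, 810 CPM in VitA-Col1a1+ chow cells and 209 CPM in the VitA-Col1a1- labelled library. The VitA+ chow library was therefore the low one of the 4 Col1a1+ libraries. Cxcl2 was at 63.0 and 28.9 CPM in the VitA+ and VitA- gates with DEN+WAD, at 14.8 and 7.47 CPM with chow, and was highest, at 146 CPM, in the VitA-Col1a1- labelled library. Cxcl5 was at 8.72, 8.57 and 9.02 CPM in the 3 DEN+WAD libraries (VitA+, VitA- and labelled VitA-Col1a1-) and at 12.0 CPM in VitA-Col1a1+ chow cells. It had no UMI among the 6145748 of the VitA+Col1a1+ chow library, where 3 UMIs, used below as a floor, are 0.488 CPM.

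The interferon-induced members were high with DEN+WAD and low with chow. Cxcl9 stood at 44.5 CPM (VitA+), 107 CPM (VitA-) and 137 CPM (labelled VitA-Col1a1-) with DEN+WAD, against 1.30 CPM (8 UMIs) and 4.93 CPM (74 UMIs) in the VitA+ and VitA- chow libraries. Cxcl10 stood at 217, 196 and 187 CPM in the same 3 DEN+WAD libraries and at 82.0 and 67.4 CPM in the chow libraries. For both genes every DEN+WAD library lay above both chow libraries. Cxcl16, the membrane-bound ligand, varied least between libraries, at 135, 120 and 186 CPM with DEN+WAD and 110 and 94.3 CPM with chow. Cxcl13 was near the floor of 3 UMIs in the chow libraries (0 and 2 UMIs) and was counted 22, 102 and 686 times (0.147, 2.14 and 6.49 CPM) in the DEN+WAD libraries.

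**Figure D1:**
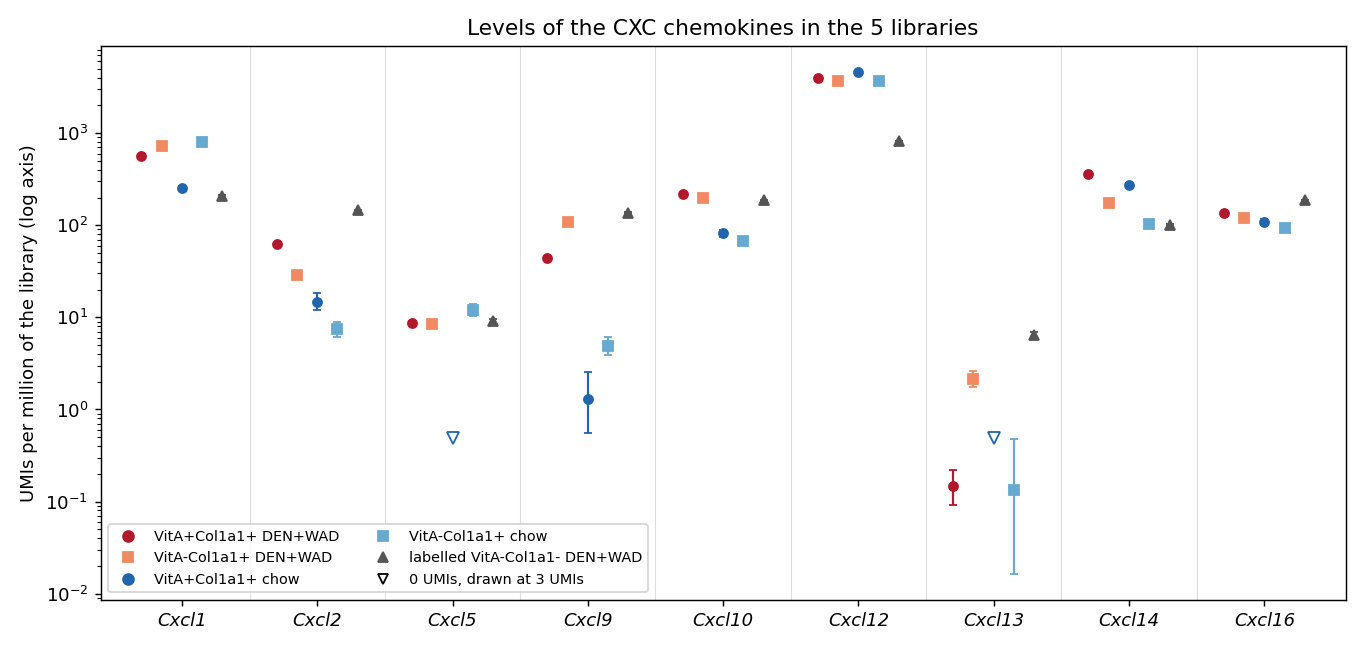
Level of each of the 9 CXC chemokines in the 5 libraries, in CPM on a log axis with 95% Poisson intervals, open triangles marking 0 UMIs drawn at 3. Cxcl12 lies between 3652 and 4663 CPM in the 4 Col1a1+ libraries, and Cxcl9 is at 1.30 and 4.93 CPM in the chow libraries against 44.5 to 137 CPM in the DEN+WAD libraries.

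The Lrat-positive class held 95.8% of VitA+Col1a1+ DEN+WAD cells (10039 cells), 90.0% of VitA+Col1a1+ chow cells (233), 64.7% of VitA-Col1a1+ DEN+WAD cells (1767) and 69.8% of VitA-Col1a1+ chow cells (466). Cxcl12 UMIs came from these cells for the greater part, with 4080, 4392 and 1527 CPM in the Lrat-positive cells of the VitA+, VitA- and labelled VitA-Col1a1- libraries of DEN+WAD mice. Pecam1-positive cells of the last library held 50.4 CPM of Cxcl12, a 30.3-fold lower level (28.1 to 32.9), and C1qa-positive cells held 93.1 CPM. Cxcl14 followed the same order there, with 176 CPM in Lrat-positive, 55.2 CPM in C1qa-positive and 4.52 CPM in Pecam1-positive cells. Dpt-positive cells, which carry a fibroblast gene and 0 UMIs of Lrat, Pecam1 and C1qa, held 1627 CPM of Cxcl12 and 218 CPM of Cxcl14 in that library.

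Cxcl1 also lay with the mesenchymal classes. In the VitA-Col1a1- labelled library it was at 342 CPM in Lrat-positive and 582 CPM in Dpt-positive cells, against 48.4 CPM in Pecam1-positive and 64.7 CPM in C1qa-positive cells. In DEN+WAD cells of the VitA-Col1a1+ gate it was at 802 CPM in Lrat-positive, 878 CPM in Dpt-positive, 1370 CPM in Myh11-positive (a smooth muscle gene, 25 cells) and 108 CPM in Pecam1-positive cells. Cxcl5 had 577 UMIs (16.1 CPM) in Lrat-positive cells of the VitA-Col1a1- labelled library and 2 UMIs in its 1614 Pecam1-positive cells. Cxcl2, the close relative of Cxcl1, stood apart by its level in C1qa-positive cells. In the same library it was at 542 CPM in C1qa-positive cells against 30.4 CPM in Lrat-positive and 33.9 CPM in Pecam1-positive cells, a 17.8-fold difference (16.7 to 19.0) between C1qa-positive and Lrat-positive cells, and 42.0% of the library's Cxcl2 UMIs lay in the 1055 C1qa-positive cells. Another 43.3% lay in the 2598 cells with more than 1 of Lrat, Pecam1 and C1qa, 26.3% of this library's cells, which are in no class. Those unclassed cells held 25.3% (Cxcl5) to 43.3% (Cxcl2) of each member's UMIs in this library, including 41.7% for Cxcl9 and 41.5% for Cxcl16. In the Col1a1+ gates with DEN+WAD the Cxcl2 level was higher in Lrat-positive than in Pecam1-positive cells, as for Cxcl1, at 64.2 against 3.89 CPM (VitA+) and 33.5 against 20.8 CPM (VitA-).

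The Cxcl9 level was higher in Pecam1-positive than in Lrat-positive cells in all 3 DEN+WAD libraries. In the VitA-Col1a1- labelled library it was at 394 CPM in Pecam1-positive, 142 CPM in C1qa-positive and 38.6 CPM in Lrat-positive cells, so that the Pecam1-positive level was 10.2-fold (9.61 to 10.8) that of Lrat-positive cells. In DEN+WAD cells of the VitA-Col1a1+ gate the 382 Pecam1-positive cells held 410 CPM and the Lrat-positive cells 66.7 CPM, and in the VitA+Col1a1+ DEN+WAD library 148 Pecam1-positive cells held 321 CPM (224 CPM without the cell with the most) against 37.0 CPM. In all, 44.0% of the Cxcl9 UMIs of the VitA-Col1a1+ DEN+WAD library lay in the 14.0% of its cells that were Pecam1-positive. In the VitA+ gate with DEN+WAD, where 1.41% of cells were Pecam1-positive, these held 6.19% of the Cxcl9 UMIs and Lrat-positive cells 80.7%, and the 158 cells with none of the 3 genes were at 836 CPM, or 199 CPM without the cell with the most. Cxcl10 differed less between classes, with 299 CPM in Pecam1-positive, 202 CPM in Lrat-positive and 106 CPM in C1qa-positive cells of the VitA-Col1a1- labelled library.

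Cxcl16 was counted in all 3 classes. In the VitA-Col1a1- labelled library it was at 384 CPM in C1qa-positive, 216 CPM in Pecam1-positive and 99.4 CPM in Lrat-positive cells, and its Pecam1-positive level was 245, 234 and 224 CPM in the VitA+ DEN+WAD, VitA- DEN+WAD and VitA- chow libraries. Cxcl13 was at 9.58 CPM in C1qa-positive and 3.01 CPM in Lrat-positive cells, and at 40.6 CPM (28.9 CPM without the cell with the most) in 75 Epcam-positive cells, which carry an epithelial gene. In these Epcam-positive cells 149 of 238 Cxcl1 UMIs lay in 1 cell (197 CPM, 78.2 CPM without it), and in the Dpt-positive cells 31 of 58 Cxcl5 UMIs did (33.6 CPM, 15.7 CPM without it). The Col1a1+ libraries held at most 1 C1qa-positive cell each, and their 10 macrophage markers summed to 2.28 to 3.40 CPM against 4195 CPM in the VitA-Col1a1- labelled library.

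**Figure D2:**
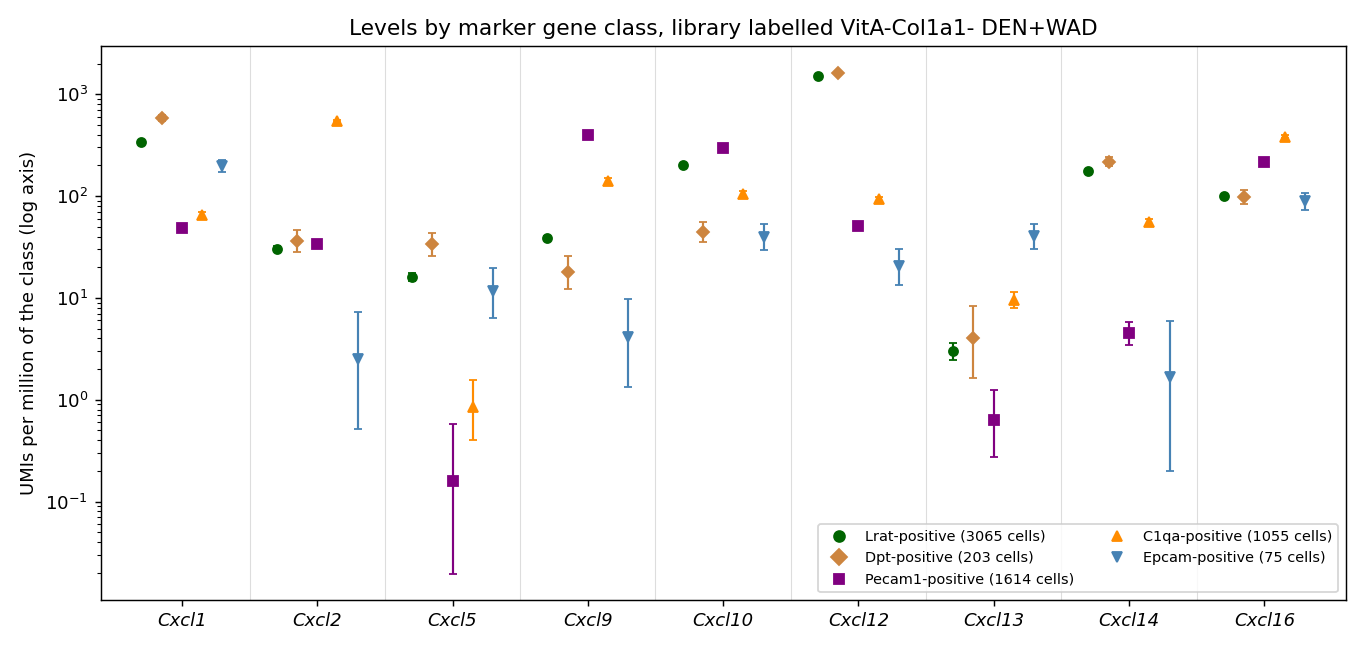
Level of each CXC chemokine in CPM, on a log axis, in 5 cell classes of the VitA-Col1a1- labelled library, with 95% Poisson intervals. Cxcl12 is at 1527 CPM in Lrat-positive cells and 50.4 CPM in Pecam1-positive cells, whereas Cxcl9 is at 38.6 and 394 CPM and Cxcl2 is at 542 CPM in C1qa-positive cells.

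DEN+WAD was next compared with chow within each Col1a1+ gate. In the VitA+ gate, 8 of the 9 members passed the filter of a mean of 2 CPM (Cxcl13 did not), and 5 of these were at least 2-fold higher with DEN+WAD and 0 were at least 2-fold lower, where 1.85% of all 11015 genes were higher and 4.48% lower. Cxcl9 was 34.2-fold higher (17.3 to 79.3), Cxcl2 4.25-fold (3.46 to 5.29), Cxcl10 2.65-fold (2.42 to 2.89) and Cxcl1 2.24-fold (2.13 to 2.36). Cxcl5 was 17.9-fold higher with the chow library set to the floor of 3 UMIs, a point value and not a bound. Cxcl5 and Cxcl9 passed the filter through the DEN+WAD library alone and so had to differ. Cxcl12 (0.862-fold, 0.852 to 0.872), Cxcl14 (1.30-fold) and Cxcl16 (1.23-fold) stayed within 2-fold. The members' median log2 ratio was 1.28, against -0.08 over all genes.

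In the VitA- gate, 8 members passed the filter and 3 were at least 2-fold higher with DEN+WAD, 0 lower, where 5.33% of all 11746 genes were higher and 5.94% lower. These were Cxcl9 at 21.8-fold (17.3 to 27.8), Cxcl2 at 3.87-fold (3.19 to 4.73) and Cxcl10 at 2.91-fold (2.73 to 3.11). Cxcl14 followed at 1.69-fold (1.60 to 1.79) and Cxcl16 at 1.27-fold, while Cxcl12 was at 0.995-fold, with an interval of -0.02 to 0.01 on the log2 scale that includes no difference and a direction that turned under TMM scaling (log2 0.07). Cxcl1 (0.901-fold, 0.882 to 0.920) and Cxcl5 (0.714-fold, 0.597 to 0.855) lay on the chow side. Cxcl13, which failed the filter, was 16.1-fold higher on only 2 chow UMIs (4.33 to 134), and 53 of its 102 DEN+WAD UMIs lay in 1 cell. The members' median was 0.55 on the log2 scale, against -0.03 over all genes.

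Some of these values rest on few cells. In the VitA-Col1a1+ chow library 672 of 1011 Cxcl10 UMIs lay in 1 Dpt-positive cell, and without it the chow level fell from 67.4 to 22.7 CPM. In the VitA+Col1a1+ chow library 56 of 91 Cxcl2 UMIs lay in 1 cell, and without it the level was 5.72 CPM in place of 14.8. In the VitA-Col1a1+ DEN+WAD library 1 Lrat-positive cell held 1312 of the 2146 Cxcl9 UMIs of its class, whose level without it was 26.0 CPM. The share of Pecam1-positive cells also moved with diet in the VitA- gate, at 14.0% with DEN+WAD and 5.54% with chow, and in bulk sums such a shift and a change per cell cannot be told apart.

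The comparison was therefore repeated within Lrat-positive cells. In the VitA+ gate 5 of 8 members were at least 2-fold higher and 0 lower (2.18% and 3.09% of 10836 genes), the same 5 as over all cells. Of these, Cxcl5 and Cxcl9 had 0 chow UMIs, passed the filter through the DEN+WAD library alone and so had to differ. Fewer than 5 were higher without the 1% of cells with the most UMIs of the gene, with the count given under processing below. Cxcl2 was 3.99-fold higher (3.24 to 4.97), Cxcl10 2.45-fold (2.24 to 2.68) and Cxcl1 2.15-fold (2.05 to 2.27). Against the floor of 3 UMIs set for 0 chow UMIs, Cxcl9 was 69.0-fold and Cxcl5 16.4-fold higher. In the VitA- gate 4 of 8 were higher and 0 lower (3.57% and 7.79% of 11369 genes). These were Cxcl9 at 38.5-fold (24.6 to 64.1), Cxcl10 at 6.84-fold (6.03 to 7.77), Cxcl2 at 5.26-fold (4.13 to 6.79) and Cxcl14 at 2.15-fold (2.02 to 2.28). Of these, Cxcl9, at 1.73 CPM with chow on 19 UMIs, passed the filter through the DEN+WAD library alone and so had to differ. Cxcl1 was at 1.07-fold in Lrat-positive cells of the VitA- gate and Cxcl12 at 1.05-fold. The Lrat-positive Cxcl10 level of VitA- chow cells was 23.7 CPM, against 162 CPM with DEN+WAD. Without the 1% of cells with the most UMIs of the gene, an alternative chosen after seeing the data, no Cxcl9 chow UMI was left in Lrat-positive cells. Against the floor of 3 UMIs its log2 ratio was then 2.64 in the VitA+ gate and 2.47 in the VitA- gate.

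Pecam1-positive cells could be compared in the VitA- gate, with 382 DEN+WAD and 37 chow cells. Cxcl9 was at 410 and 82.8 CPM, a 4.95-fold difference (3.75 to 6.67). Cxcl10 was at 374 and 26.0 CPM, with 14 of the 16 chow UMIs in 1 cell. Cxcl16 was at 234 and 224 CPM (1.04-fold, 0.874 to 1.25), so that no difference was seen within counting error. Cxcl1 was 4.42-fold higher (2.66 to 7.96) and Cxcl12 8.19-fold higher (5.16 to 13.9) in these cells with DEN+WAD, on 15 and 18 chow UMIs. The 10 stellate markers summed to 531 and 432 CPM in these Pecam1-positive cells with DEN+WAD and chow, and their part in the Cxcl1 and Cxcl12 values was not tested.

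Between the gates, the VitA- library of DEN+WAD mice had 1 member at least 2-fold above the VitA+ library and 2 at least 2-fold below, where 10.7% and 1.71% of 11418 genes were. Cxcl9 was the higher one (2.41-fold, 2.32 to 2.50, or 1.27 on the log2 scale, and 0.77 without the 1% of cells with the most UMIs), and Cxcl2 (2.18-fold lower) and Cxcl14 (2.03-fold lower) were the lower ones. Both lie near the 2-fold line. Only 1 member was lower by the mean over cells and without cells with more than 1 of Lrat, Pecam1 and C1qa. With chow, 3 members were higher and 1 lower in the VitA- gate, where 12.5% and 5.75% of 11561 genes were. Cxcl1 was 3.20-fold higher (3.04 to 3.38), Cxcl5 24.6-fold higher against the floor of 3 UMIs and Cxcl9 3.79-fold higher (1.83 to 9.11, on 8 VitA+ UMIs), while Cxcl14 was 2.64-fold lower. Cxcl5 and Cxcl9 passed the filter through the VitA- library alone and so had to differ. Cxcl2, at 1.98-fold lower, lay just inside the 2-fold line, but without the cell with the most Cxcl2 UMIs in each library its levels were 5.08 (VitA-) and 5.72 CPM (VitA+). The 10 endothelial markers summed to 950 and 3045 CPM in the VitA+ and VitA- DEN+WAD libraries, and their part in the Cxcl9 difference was not tested.

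Lrat-positive cells of the VitA-Col1a1- labelled library held less Cxcl12 than those of the VitA+Col1a1+ DEN+WAD library (1527 against 4080 CPM, 2.67-fold lower), less Cxcl14 (2.05-fold lower) and less Cxcl2 (2.11-fold lower), although Cxcl2 was higher over the whole library. Cxcl5 was 1.83-fold higher there, and Cxcl13 19.9-fold higher (12.5 to 33.1) at 3.01 against 0.151 CPM. Cxcl9 was at 1.04-fold (0.984 to 1.11). Set against Lrat-positive cells of the VitA- gate with DEN+WAD, the same cells were again lower in Cxcl12 (2.87-fold) and higher in Cxcl5 (1.70-fold), but Cxcl13 was at 3.01 against 2.52 CPM (interval of the ratio 0.888 to 1.62), Cxcl2 at 0.907-fold and Cxcl9 at 0.579-fold, where 1 cell of the VitA- gate held 1312 of 2146 Cxcl9 UMIs.

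How widely each chemokine was expressed was read as the share of cells with at least 1 UMI after thinning each cell with 5000 or more UMIs to 5000. In Lrat-positive cells Cxcl12 was found in 100% (VitA+ chow), 99.1% (VitA- chow) and 99.3% (VitA- DEN+WAD) of cells, and in 93.6% in the VitA-Col1a1- labelled library. Cxcl1 was found in 50.5% and 32.9% of VitA+ cells with DEN+WAD and chow, a difference of 17.6 points (11.1 to 23.7), and in 60.7% and 66.2% of VitA- cells, a difference of -5.54 points (-10.4 to -0.469). Unthinned, these shares were 65.2%, 50.2%, 78.8% and 82.7%, with 13346, 24513, 17382 and 23031 UMIs in the median cell. The thinned shares thus put Cxcl1 higher with DEN+WAD in the VitA+ gate and slightly lower in the VitA- gate.

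Cxcl14 was found in 59.2% and 57.1% of VitA+ Lrat-positive cells with DEN+WAD and chow, a difference whose interval includes 0 (2.01 points, -4.53 to 8.74), and in 42.5% and 19.7% of VitA- cells (22.8 points, 18.2 to 27.0). Unthinned, the shares were 76.6%, 82.7%, 59.4% and 35.1%. Cxcl16 was found in 45.3% and 34.2% of VitA+ cells (11.1 points, 4.53 to 17.3) and in 36.2% and 31.4% of VitA- cells (4.80 points, -0.194 to 9.60), and unthinned in 78.0%, 86.6%, 75.2% and 82.0%. For Cxcl16 the order of the diets was the reverse before thinning, when chow cells were deeper. Cxcl10 was found in 20.4% and 13.9% of VitA+ cells and in 14.7% and 8.01% of VitA- cells, with differences of 6.59 and 6.73 points (1.39 to 10.8 and 3.43 to 9.63), and unthinned in 32.6%, 24.7%, 27.1% and 20.8%.

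Cxcl2, Cxcl5 and Cxcl9 were found in few Lrat-positive cells. Cxcl2 was found in 7.88% and 2.16% of VitA+ cells and 5.09% and 1.52% of VitA- cells with DEN+WAD and chow, and Cxcl5 in 1.52%, 0%, 2.31% and 4.76% of the same groups. Cxcl9 was found in 1.90% and 1.73% of VitA+ and VitA- Lrat-positive cells with DEN+WAD, in 0% and 0.433% with chow, and in 45.2% and 52.7% of the Pecam1-positive cells with DEN+WAD. As a reference for free RNA, Cd3e-positive cells of the VitA-Col1a1- labelled library (a T cell gene, 22 cells, median 6450 UMIs) had a UMI of Cxcl12 in 2 cells, of Cxcl2, Cxcl10 and Cxcl13 in 1 cell each and of the other members in 0. At 22 cells a count of 0, as for Cxcl5 and Cxcl9, has an upper bound of 15.4%, and a count of 1, as for Cxcl2 and Cxcl10, has a higher one. The low shares of Cxcl2, Cxcl5 and Cxcl9 and the thinned Cxcl10 shares in Lrat-positive cells could therefore not be set apart from background by this reference.

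**Figure D3:**
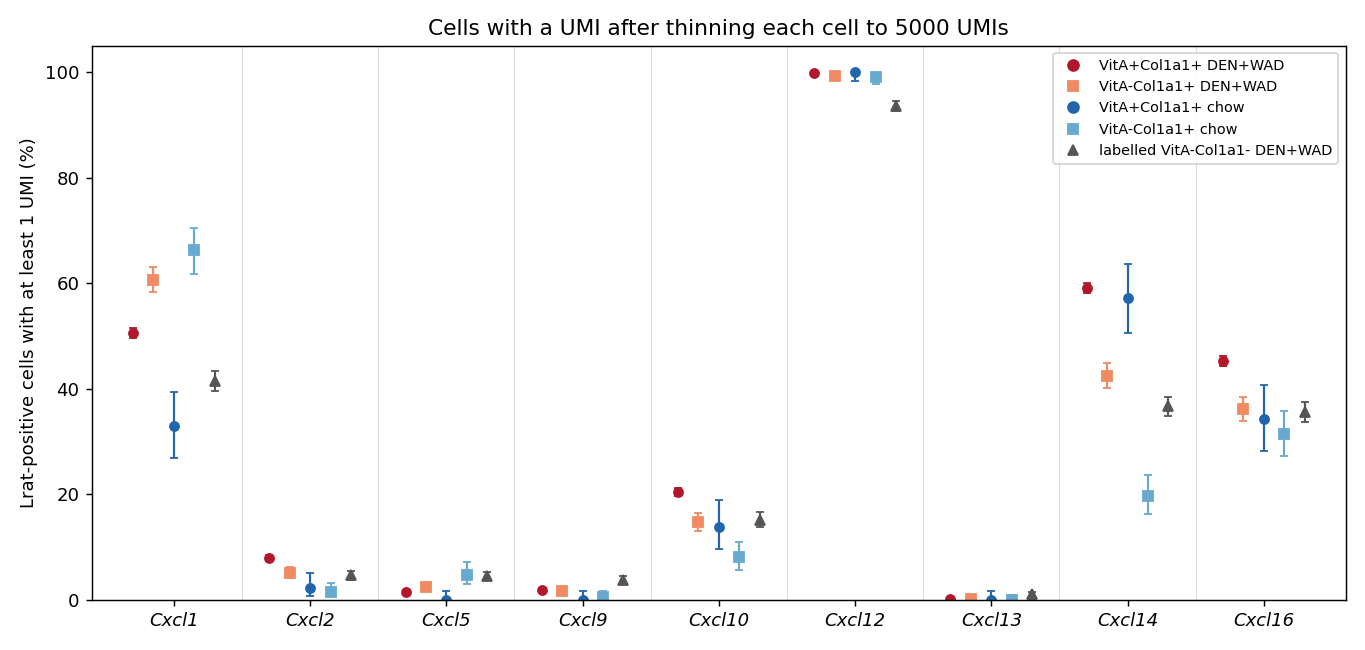
Share of Lrat-positive cells with at least 1 UMI of each CXC chemokine, in percent with 95% exact binomial intervals, after thinning to 5000 UMIs. Cxcl1 is at 50.5% (DEN+WAD) against 32.9% (chow) in the VitA+ gate, and Cxcl14 is at 42.5% against 19.7% in the VitA- gate.

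The members also differed in how their UMIs were spread over cells. The 1% of Lrat-positive cells with the most UMIs of a gene held 2.85% of Cxcl12, 8.33% of Cxcl16, 12.6% of Cxcl14 and 14.8% of Cxcl1 UMIs in the VitA+Col1a1+ DEN+WAD library. The same share was 42.9% for Cxcl10, 56.7% for Cxcl2, 83.0% for Cxcl5 and 91.0% for Cxcl9. The UMIs of Cxcl12 and Cxcl16 were thus the least concentrated, and those of Cxcl9 and Cxcl5 lay in few cells. For a gene found in few cells this share is high by construction. In the VitA-Col1a1+ DEN+WAD library the values were 3.98% for Cxcl12, 54.1% for Cxcl10, 65.7% for Cxcl2 and 97.7% for Cxcl9.

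**Figure D4:**
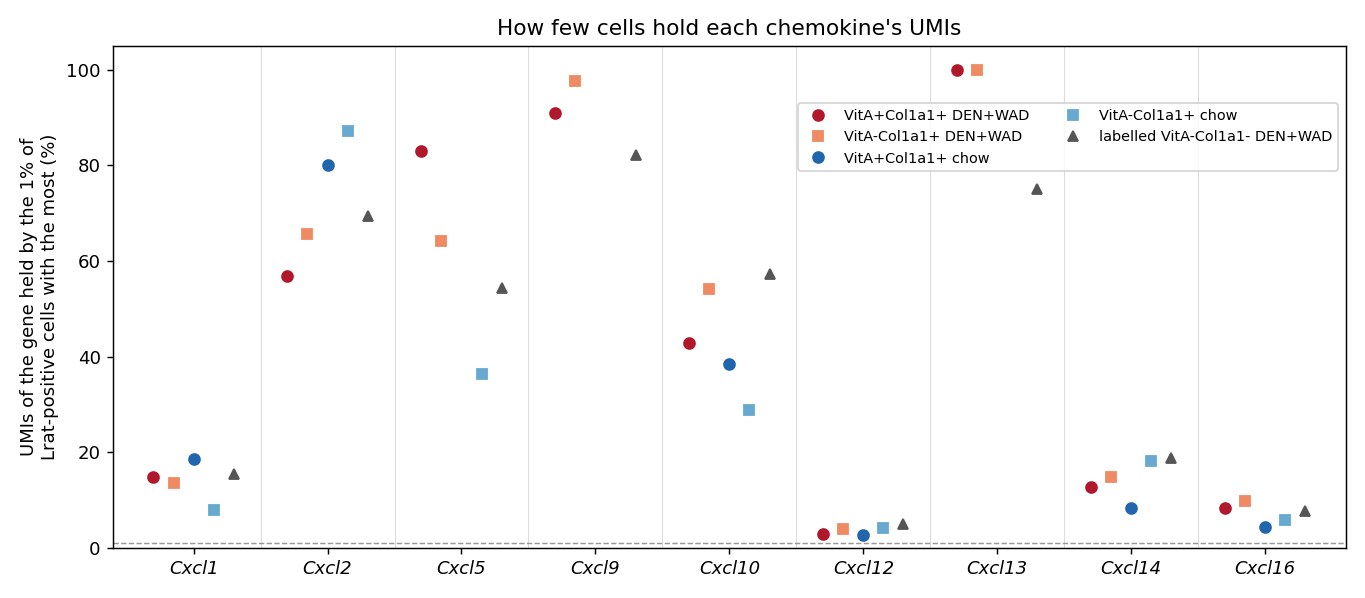
Percent of the UMIs of each CXC chemokine held by the 1% of Lrat-positive cells with the most, by library, for genes with at least 20 UMIs. In the VitA+Col1a1+ DEN+WAD library the value is 2.85% for Cxcl12 and 91.0% for Cxcl9, and 100% for Cxcl13 on 22 UMIs. The dashed line marks 1%.

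Cxcl2-positive cells were often Cxcl1-positive. Among thinned Lrat-positive cells of the DEN+WAD library of VitA+Col1a1+ cells, Cxcl1 was found in 85.3% (82.6 to 87.7) of the 781 Cxcl2-positive cells and in 47.6% (46.5 to 48.6) of the rest, while Cxcl2 was found in 13.3% of the Cxcl1-positive cells. The same shares were 83.0% and 59.5% in the VitA-Col1a1+ DEN+WAD library and 73.6% and 39.9% in the VitA-Col1a1- labelled library. Cxcl10 was found in 39.7% of Cxcl2-positive cells against 18.8% of the rest, and Cxcl2 in 34.4% of the 151 Cxcl5-positive cells against 7.47%. Cells of 1 library share their mice and are no replicates, so these shares describe the libraries and carry no test.

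A list of 10 other NF-kB response genes, with no CXC chemokine among them, was summed in the same thinned cells of the DEN+WAD library of VitA+Col1a1+ cells. Its level was 5472 CPM in Cxcl2-positive and 1670 CPM in Cxcl2-negative cells, and 8974 against 1868 CPM for Cxcl5. For Cxcl10 it was 3893 against 1486 CPM and for Cxcl1 2617 against 1320 CPM. Cxcl14 split the cells without such a gap (1996 against 1999 CPM). Cxcl9-positive and Cxcl9-negative cells stood at 4149 and 1939 CPM (2.14-fold). The 188 Cxcl9-positive cells were deeper, with 18130 UMIs in the median cell against 13310.5 in the rest, and Cxcl5-positive cells had 15770 against 13324. The part of depth in these splits was not tested. A list of 10 interferon response genes was 1.36-fold and 1.35-fold higher in Cxcl9-positive and Cxcl10-positive cells, 1.25-fold in Cxcl5-positive, 1.18-fold in Cxcl2-positive and 1.06-fold in Cxcl1-positive cells, so that in this library its ratio was smaller than that of the NF-kB list for each of these 5 members. In the VitA-Col1a1- labelled library the interferon and NF-kB ratios were close for Cxcl9 (1.73 and 1.75) and further apart for Cxcl10 (1.75 and 3.22). The immediate-early and heat shock list, a sign of handling during dissociation, was 0.660-fold in Cxcl9-positive and 0.775-fold in Cxcl5-positive cells. The genes of these lists past 2-fold between diets are named next, chosen after their values were seen. In the VitA+ gate, 2 of 9 measured NF-kB genes were at least 2-fold higher with DEN+WAD (Ccl7 3.76-fold and Ccl2 3.49-fold, both monocyte chemokines) and 0 lower, where 1.85% of all genes were higher, and the interferon and immediate-early lists had 0 of 10 each past 2-fold. The median log2 ratios of the 3 lists were 0.51, 0.35 and -0.12, against -0.08 over all genes. In the VitA- gate the NF-kB list had 2 of 10 higher (Ccl2 3.62-fold and Vcam1 2.30-fold), the interferon list 2 (Ifit3 2.09-fold and Isg15 2.07-fold) and the immediate-early list 2 (Hspa1a 4.09-fold and Hspa1b 4.06-fold), with 0 lower in each, where 5.33% of all genes were higher. The medians were 0.60, 0.80 and 0.54, against -0.03 over all genes.

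The signalling receptors Cxcr4 and Cxcr6 were scarce in the Col1a1+ libraries. Cxcr4, the Cxcl12 receptor, was at 0.574 to 1.15 CPM there and at 32.2 CPM in the VitA-Col1a1- labelled library, and Cxcr6, the Cxcl16 receptor, had 0 UMIs in the 4 Col1a1+ libraries and 3.09 CPM in that library. In Cd3e-positive cells of that library Cxcr6 was at 383 CPM, Cxcr4 at 166 CPM and Cxcr3, the receptor of Cxcl9 and Cxcl10, at 141 CPM. The atypical receptor Ackr3, which takes up Cxcl12, followed the gate, at 82.8 and 148 CPM in VitA- cells with DEN+WAD and chow against 7.74 and 1.30 CPM in VitA+ cells. Dpp4, a protease that trims Cxcl10 and Cxcl12, was at 516 CPM (VitA+ DEN+WAD), 467 CPM (VitA- DEN+WAD), 623 CPM (VitA- chow) and 350 CPM (labelled VitA-Col1a1-) in the Pecam1-positive cells of the 4 libraries with at least 20 of them.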

How the data were processed

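Single-cell RNA was measured in 5 libraries of sorted mouse liver cells, 1 per group, aiming at 10000 cells each. The deposited values are raw UMI counts per gene and cell, which the authors made with Cell Ranger against mm10 (3.1.0 in the submitters' processing notes and 4 file headers, 6.1.2 in the header of the VitA-Col1a1- labelled library). All barcodes in the files were used (lowest 500 UMIs), and no doublet caller was run, so cells with more than 1 main marker gene were left out of the classes and, as an alternative, of all sums.

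Counts were summed per library or class and divided by the total to give CPM, with exact Poisson intervals. Ratios carry exact conditional binomial intervals, shares Clopper-Pearson intervals and share differences intervals built from these, all at 95% and all for counting error only. Ratios were formed over genes with a mean of at least 2 CPM, a gene with 0 UMIs was set to a floor of 3 UMIs in that library, and 2-fold marks a size, not a test. Shares used cells with at least 5000 UMIs, thinned to 5000 in 1 seeded draw, since depth per cell differed between libraries. Classes with fewer than 20 cells are not given. Ratio calls were tested on simulated data. Python 3.11.15, numpy 2.4.6, scipy 1.17.1, pandas 2.3.3 and matplotlib 3.10.9 were used, with edgeR 4.0.16 (TMM) and DESeq2 1.42.0 (size factors) in R 4.3.3 for alternative scalings only. Other alternatives were thinning to 2000 UMIs, no filter, cells with at least 5000 UMIs, leaving out the 1% of cells with the most UMIs, means over cells and other definitions of Lrat-positive cells.

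The members and gene lists were chosen with earlier results of these data known. Genes named are the 9 members, genes of lists of other CXC ligands, receptors, proteases and NF-kB, interferon and immediate-early responses, and for likeness the genes with the highest correlation. Of the genes listed, 1 had no row in the tables.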

Additional observations from a re-analysis of the deposited data

Results flagged for a closer look

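For a pair of members the point ratios of DEN+WAD to chow had opposite directions in the VitA+ and VitA- gates, and the difference between the gates was not tested, since each ratio rests on 1 library per group. Cxcl1 had a log2 ratio of 1.16 in the VitA+ gate and -0.15 in the VitA- gate, where it was 1.07-fold in Lrat-positive cells. Cxcl5 had a log2 ratio of 4.16 in the VitA+ gate, set against the floor of 3 UMIs, and -0.49 in the VitA- gate. In Lrat-positive cells of the VitA- gate the Cxcl5 log2 ratio was -0.09, and 0.06 under TMM scaling. For both genes the VitA+ chow library, with 259 cells, was the low value.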

How the results depend on the processing

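Of 371 alternative values of the members' log2 ratios, 363 kept the sign of the reported value. The 8 others were Cxcl12 in the VitA- gate (4) and its Lrat-positive cells (1), and Cxcl5 in the Lrat-positive cells of the VitA- gate (2) and between the gates with DEN+WAD (1, at 0.95 without the 1% of cells with the most UMIs of the gene), all near 0 as reported. Of 100 alternative counts of members past 2-fold, 87 stayed within 1.5 times the reported count. In the VitA- gate, 1 member in place of 0 was lower with DEN+WAD by the mean over cells and without the 1% of cells with the most UMIs of the gene. Between the gates with DEN+WAD, 2 members were higher in the VitA- gate with no filter and 0 without the 1% of cells with the most UMIs, and 1 was lower without those cells, without cells with more than 1 main marker gene and by the mean over cells. With chow, 2 members were lower in the VitA- gate under TMM scaling, DESeq2 size factors, the mean over cells, without cells with more than 1 main marker gene and without the 1% of cells with the most UMIs of the gene. In Lrat-positive cells of the VitA+ gate, 3 members were higher without the 1% of cells with the most UMIs of the gene, an alternative chosen after seeing the data. The cause of these changes was not tested. TMM scaling moved the median of all genes by 0.19 in the VitA+ gate, by -0.20 between the gates with DEN+WAD and by 0.14 in Lrat-positive cells of either gate, and DESeq2 size factors by 0.13 and -0.17 in the first pair. No paired analysis was possible because each group is 1 library and no test was made. Depth limits Cxcl5, Cxcl9 and Cxcl13 most in the VitA+Col1a1+ chow library, where 3 UMIs are 0.488 CPM.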

Other observations

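Pf4, also known as Cxcl4 and usually regarded as a platelet chemokine, was counted in the sorted mesenchymal cells. It stood at 88.0 and 36.8 CPM in the VitA+ gate with DEN+WAD and chow (2.39-fold, 2.10 to 2.74) and at 49.0 and 28.3 CPM in the VitA- gate (1.73-fold, 1.56 to 1.92). In the VitA-Col1a1- labelled library it was at 90.9 CPM in Lrat-positive, 45.4 CPM in C1qa-positive and 7.85 CPM in Pecam1-positive cells, while Ppbp, another platelet chemokine, had 23 UMIs in that library and at most 1 in each of the others. The atypical chemokine receptor Ackr1, which binds many inflammatory CXC ligands, was at 45.2 and 1.80 CPM in the VitA+ and VitA- gates with chow and at 42.1 and 14.5 CPM with DEN+WAD.

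Over 14 sums of a class in a library with at least 50 cells, the genes most like each member among 9899 were, by Pearson's r of log2(CPM + 1), Ndn for Cxcl12 (0.99), Rab34 for Cxcl1 (0.98), Tgfbi for Cxcl14 (0.97), Lamp1 for Cxcl16 (0.97), Chchd10 for Cxcl13 (0.96), Ror1 for Cxcl5 (0.89), Atp7a for Cxcl10 (0.89), Irf7 for Cxcl2 (0.87) and H2-T24 for Cxcl9 (0.87). These sums share libraries and depth, and the values are a description.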
